A study of Mus musculus with 8 samples.

Results

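The genes described here encode the sensors of double-stranded RNA and the adaptors through which they signal: Ddx58 (now called Rigi), Ifih1, Dhx58, Tlr3, Eif2ak2, Mavs, Irf3, Irf7, Adar and Zbp1. Every non-control probe whose gene name in the array files is one of these symbols was taken, which gave 14 probes for 10 genes, of 55681 probes and 23893 named genes on the array. They were measured in C2C12, a mouse line of muscle precursor cells, as myotubes on day 4 of differentiation. One group had been transfected with control siRNA and the other with siRNA to macroH2A1.1, which is made by alternative splicing of the Macroh2a1 histone gene. Each group held 4 samples, which the labels call biological replicates without describing the cultures, so each p-value reflects only the scatter of these samples, which may be technical. Total RNA (500 ng per sample) was hybridised singly to 1-colour Agilent arrays on 1 slide. Both groups had received an RNA duplex, and cells without a duplex were not analysed here, so the comparison is of one siRNA against another. A response to the sequence of the macroH2A1.1 duplex and an effect of losing macroH2A1.1 cannot be told apart in this design.

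Cells carry several receptors for double-stranded RNA, a structure that viruses make while replicating and that a transfected duplex also has. In the cytosol the helicases RIG-I (Ddx58) and MDA5 (Ifih1) bind such RNA and pass the signal to MAVS on the mitochondrial surface, while TLR3 samples RNA in endosomes, and both routes end in the transcription factors IRF3 and IRF7, which switch on type I interferon genes. PKR (Eif2ak2) stops translation when it binds double-stranded RNA, ADAR1 (Adar) edits adenosines in such RNA so that it is no longer sensed as foreign, and ZBP1 starts inflammatory cell death when it binds left-handed nucleic acid. Most of these genes are also targets of interferon, Irf3 and Mavs being the textbook exceptions.

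The sequences that bear on the readout are those of the probes and of the members' promoters. The Irf7 probe is shown whole because it crosses a splice junction: its 60 bases lie over 351 bases of genome (chr7:148450664-148451014, mm9, minus strand), so its signal comes from spliced RNA.
Irf7 probe A_51_P421876: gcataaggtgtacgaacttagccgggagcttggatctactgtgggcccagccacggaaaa
The 2 Zbp1 probes are shown by their first 30 bases because the array files list them for different transcript variants, the first for variant 2 (chr2:173039307-173039366) and the second for variant 1 (chr2:173032258-173032317, both mm9, minus strand).
Zbp1 probe A_55_P1994042: caagctggtcttgaacccacagagatcttc
Zbp1 probe A_66_P139683: acagatgtgacatgaaagtacatgtaacac
Of the 14 probes, 5 hold the letters AATAAA, the usual polyadenylation signal, against 10.1% of all probes on the array.

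Promoter sequence was taken from RefSeq (GRCm38.p6), 250 bases before to 50 bases after each start, which covered 8 of the 10 genes with 10 entries (3 of them for Adar). Dhx58 and Zbp1 had no entry. The letters GAAANNGAAA, the core of the element bound by interferon-activated factors, were searched on both strands and stood in 3.44% of 32851 promoters. They were found in 3 members, printed here on the gene's strand with the match in capitals, because these 3 genes are among those that read higher with macroH2A1.1 siRNA.
Ifih1 (chr2:62646206-62646235, minus strand, match starting 33 bases into the transcript): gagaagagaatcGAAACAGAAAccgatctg
Eif2ak2 (chr17:78882535-78882564, minus strand, match starting at base 19): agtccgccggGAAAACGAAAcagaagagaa
Ddx58 (chr4:40239804-40239833, minus strand, match starting at base 3, read on the opposite strand): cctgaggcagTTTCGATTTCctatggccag
The shorter GAAANNGAA, which lies within the longer motif and stood in 8.56% of promoters, was also found in 1 of the 3 Adar entries.
Adar (chr3:89730738-89730767, plus strand, match starting at base 34): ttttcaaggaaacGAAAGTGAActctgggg
No match to GAAANNGAAA was found in these windows for Mavs, Irf3, Irf7 or Tlr3, which says only that the letters are absent from the windows. The letters TTCNNNGAA, also searched, stood in 8.3% of promoters and in 2 members, Adar and Eif2ak2.

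Across the 8 arrays, between 46.9% and 49.8% of 59305 non-control spots were well above background and none was saturated. Precision is limited by the number of arrays. All 3 probes of Macroh2a1, the gene the siRNA targets, were lower within each pair of same-numbered samples, and each differed least in replicate 4 (-0.66 to -0.73, log2, against -0.92 to -1.82 in the other pairs). Which splice forms these probes detect was not tested here. The probe kept for the gene read -0.99 with a limma adjusted p of 0.0394 unpaired and 0.0135 paired. Same-numbered samples deviated together, so each result is given unpaired and with that number entered as a block. All 12 myotube markers were well above background on every array. With the block 7 of these 12 rose, among them the myosin genes Myh2 (2.19) and Myh1 (1.49), where 4.15% of all genes rose, and none passed unpaired. The list median was 0.36, and the fast myosin gene Myh4 read -1.05 (limma adjusted p = 0.0606 with the block). Of 4 tested myoblast markers Des, Cdh15 and Myod1 rose with the block, none passed unpaired, and Vcam1 read -0.59 (adjusted p = 0.0568). Values below are log2 signal relative to the 75th percentile of each array, and a difference is macroH2A1.1 siRNA minus control siRNA.

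In the mean, 6 of the 8 tested members read higher with macroH2A1.1 siRNA, as did 6849 of all 13701 genes tested. These members were Zbp1 by 1.81, Irf7 by 1.72, Ifih1 by 1.19, Eif2ak2 by 0.83, Ddx58 by 0.78 and Adar by 0.29. Mavs and Irf3, which relay the signal, both read -0.01. None of the 8 members passed the threshold of an adjusted p of 0.05 in limma, without or with the block. The differences were large in replicates 2 and 3 and small in replicates 1 and 4. In bulk RNA, more cells expressing a gene and more RNA per cell cannot be told apart.

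**Figure D1:**
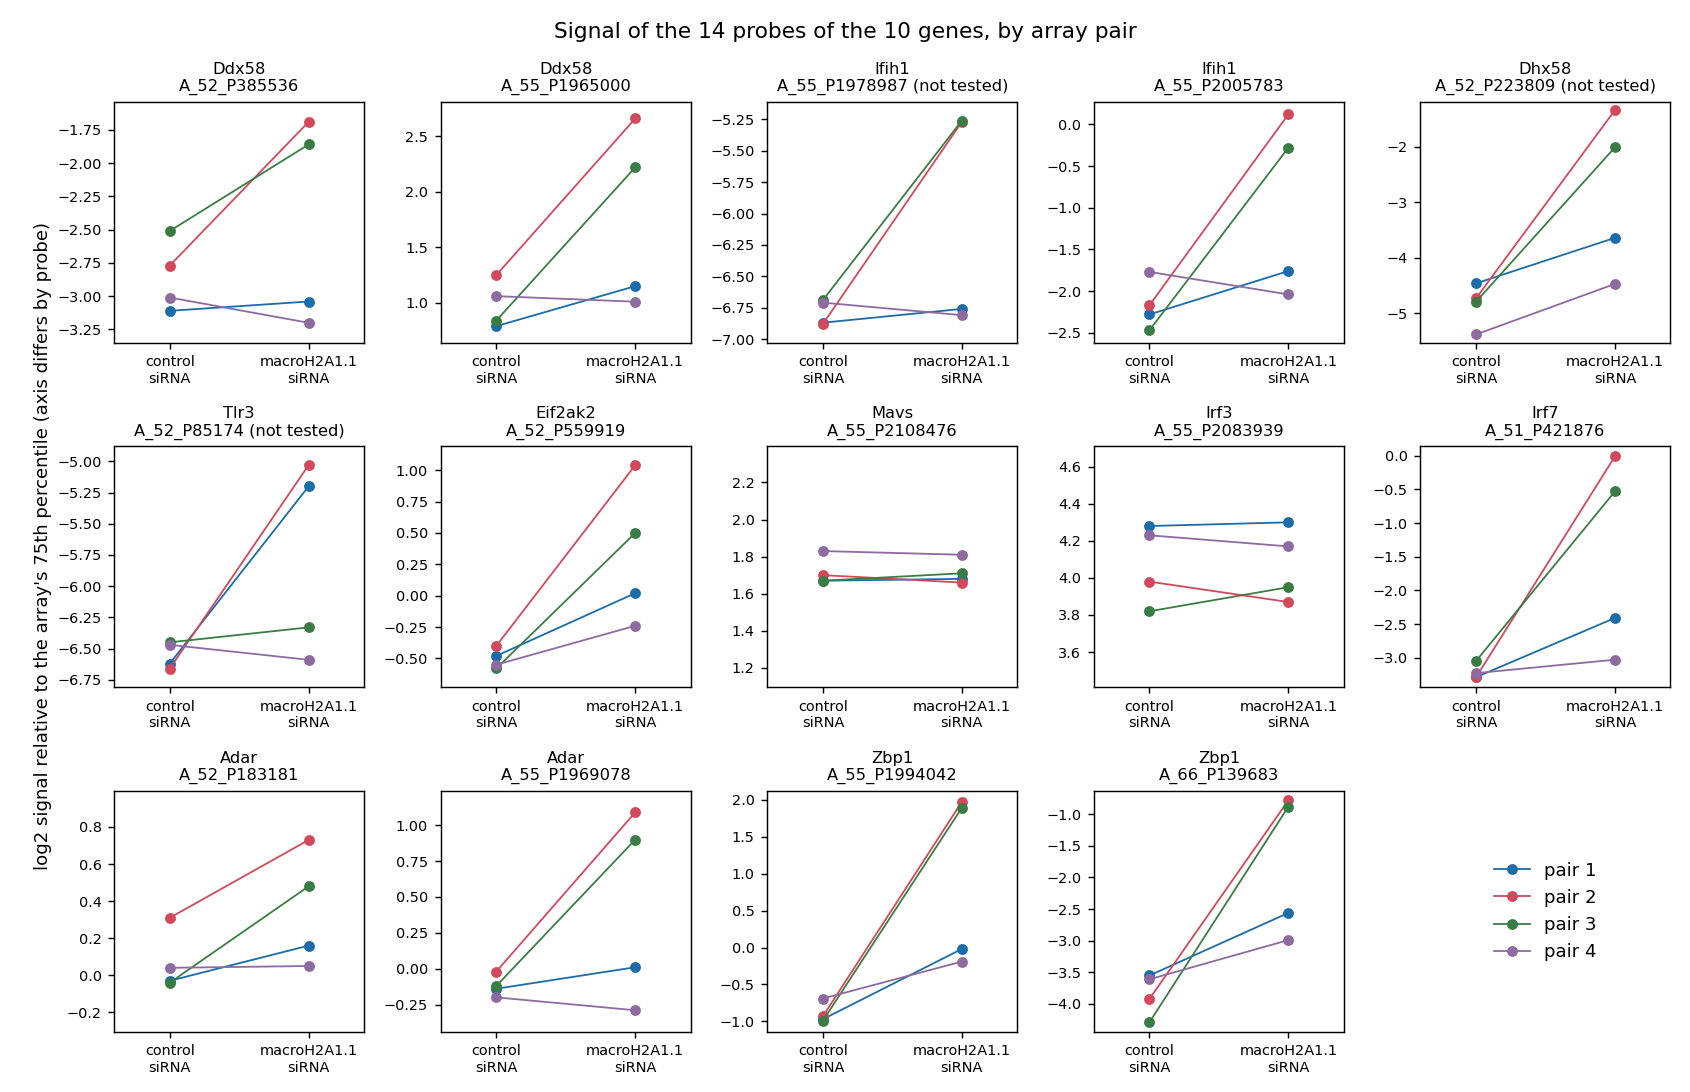
Signal of each of the 14 probes (vertical axes, log2 signal above or below the 75th percentile of its array, scale differing by probe) in the 4 control siRNA and the 4 macroH2A1.1 siRNA samples, with lines joining samples of the same number. For Irf7, Zbp1, Ifih1 and Dhx58 the lines of replicates 2 and 3 climb most, while those of Mavs and Irf3 stay flat.

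The cytosolic helicases come first. Ddx58, which encodes RIG-I, the sensor of short duplexes with a triphosphate end, read 0.79, 1.25, 0.84 and 1.06 in control replicates 1 to 4 and 1.15, 2.66, 2.22 and 1.01 in macroH2A1.1 siRNA replicates 1 to 4 (probe at chr4:40151893-40151952, mm9, minus strand). Replicates 2 and 3 of the macroH2A1.1 siRNA group lay above every control sample and replicates 1 and 4 lay within the control range. The mean difference of 0.78 is 1.71-fold (SE 0.36, limma adjusted p = 0.444 without pairing; SE 0.27, adjusted p = 0.142 with the block), and without macroH2A1.1 siRNA replicate 2 it was 0.48. The other Ddx58 probe, further along the transcript (chr4:40151133-40151192), differed by 0.40, with pair differences of 0.07, 1.08, 0.65 and -0.19. Both probes put replicates 2 and 3 highest, and their profiles correlated at 0.90 over the 8 arrays.

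Ifih1 encodes MDA5, the sensor of long duplexes. Its probe (chr2:62435507-62435566, mm9, minus strand) read -2.28, -2.17, -2.47 and -1.77 in control cells and -1.76, 0.12, -0.28 and -2.04 with macroH2A1.1 siRNA. The groups overlapped through replicate 4, which read lower with macroH2A1.1 siRNA than its control. The mean difference was 1.19, or 2.27-fold (SE 0.48, limma adjusted p = 0.369; SE 0.47, adjusted p = 0.173 with the block). By exact permutation of the samples p was 0.0571 (two-sided, n = 4 per group). In the authors' deposited series values the difference was 0.75. A further Ifih1 probe (chr2:62434960-62435019) stayed below detection on all 8 arrays (not well above background), although its profile followed that of the first at r = 0.96.

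Dhx58 encodes LGP2, a helicase without signalling domains that modulates the other two. Its probe (chr11:100556271-100556330, mm9, minus strand) read -4.46, -4.73, -4.79 and -5.38 in control cells and -3.64, -1.34, -2.01 and -4.47 with macroH2A1.1 siRNA. It was well above background on 1 control array and 3 macroH2A1.1 siRNA arrays, so it did not enter the limma fit. Replicates 2 and 3 of the macroH2A1.1 siRNA group read highest and the groups just overlapped, but 3 of the 4 control readings were not well above background, so no difference or test is given.

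Tlr3, the endosomal receptor, gave no measurable signal. Its probe (chr8:46481729-46481788, mm9, minus strand) did not stand well above background on any array, with readings from -6.66 to -6.45 in control cells and from -6.59 to -5.03 with macroH2A1.1 siRNA. No difference is reported for it.

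Among the members that act directly on RNA or on cell fate, Eif2ak2 and Zbp1 separated the groups. Eif2ak2, which encodes the translation-stopping kinase PKR, read -0.48, -0.40, -0.58 and -0.55 in control cells and 0.02, 1.04, 0.50 and -0.24 with macroH2A1.1 siRNA (chr17:79252168-79252227, mm9, minus strand). All 4 macroH2A1.1 siRNA samples lay above all 4 controls, and control values spanned only 0.18 against 1.28 in the other group. The difference of 0.83 is 1.78-fold (SE 0.25, limma adjusted p = 0.257; SE 0.20, adjusted p = 0.0622 with the block). The exact permutation test gave p = 0.0286, the smallest that groups of 4 allow (two-sided), and 0.125 within pairs, the smallest that 4 pairs allow.

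Of 13 settings with the block, the block alone included, Eif2ak2 passed the threshold in 4. In those 4 settings 1336 to 2043 of all genes passed, of 13094 to 13701 tested. Its limma adjusted p was 0.0273 after normexp background correction, 0.0383 in the deposited series values, 0.0464 when only probes above background on all 8 arrays were kept and 0.0376 with trended robust variances, and it reached 0.188 in the least favourable of the 13. Its difference lay between 0.63 and 1.01 throughout.

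Zbp1 encodes the sensor of left-handed nucleic acid that recruits RIPK3. The variant 2 probe shares a run of 16 bases with 1 probe of another name, as 27.7% of all probes share such a run. Whether it also picks up other RNA was not tested. This probe read -0.97, -0.93, -0.99 and -0.69 in control cells and -0.02, 1.97, 1.89 and -0.19 with macroH2A1.1 siRNA. Replicates 2 and 3 stood about 2 log2 units above the other pair of that group, and even the lowest of the 4 lay above every control. The mean difference was 1.81, or 3.50-fold (SE 0.51, limma adjusted p = 0.233; SE 0.47, adjusted p = 0.0741 with the block), the largest among the 8 tested members.

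The variant 1 probe of Zbp1 read -3.55, -3.92, -4.29 and -3.61 in control cells and -2.56, -0.78, -0.88 and -2.99 with macroH2A1.1 siRNA. It was well above background on 3 control arrays and all 4 of the others, so it was kept through the macroH2A1.1 siRNA group alone. It differed by 2.04, or 4.11-fold, a value that rests partly on control signal near background. The probes of both variants kept the groups apart (exact permutation p = 0.0286 each, two-sided, n = 4 per group) and followed each other at r = 0.98 over the 8 arrays. In those 13 settings with the block the variant 2 probe passed in 2, normexp (adjusted p = 0.0334) and the authors' series values (0.0409), within a range up to 0.206 in limma, with differences from 1.44 to 2.24. In these 2 settings 1887 and 1714 of 13701 genes passed.

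Adar, which encodes the editing enzyme ADAR1, differed less. Its kept probe (chr3:89557158-89557217, mm9, plus strand) read -0.03, 0.31, -0.04 and 0.04 in control cells and 0.16, 0.73, 0.48 and 0.05 with macroH2A1.1 siRNA. The groups overlapped, although each macroH2A1.1 siRNA sample lay above the control of its own number. The difference of 0.29 is 1.22-fold (SE 0.16, limma adjusted p = 0.547; SE 0.10, adjusted p = 0.136 with the block), and it was 0.16 without macroH2A1.1 siRNA replicate 2. The other Adar probe (chr3:89555266-89555325), whose profile correlated at 0.93 with the first, differed by 0.55. Its pair differences were 0.15, 1.12, 1.02 and -0.08.

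The adaptor and the transcription factors divided. Mavs, the mitochondrial adaptor of RIG-I and MDA5, read 1.67, 1.70, 1.67 and 1.83 in control cells and 1.68, 1.66, 1.71 and 1.81 with macroH2A1.1 siRNA (chr2:131073675-131073734, mm9, plus strand). The ranges nearly coincided and no pair differed by more than 0.04. With the block the 95% interval of the difference ran from -0.14 to 0.13, that is from 0.907-fold to 1.09-fold (limma adjusted p = 0.956). A change inside that interval would not have been seen.

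Irf3, the factor present before stimulation and activated by phosphorylation, read 4.28, 3.98, 3.82 and 4.23 in control cells and 4.30, 3.87, 3.95 and 4.17 with macroH2A1.1 siRNA (chr7:52257700-52257759, mm9, plus strand). Its samples followed their replicate number more than their group, with pair differences of 0.01, -0.11, 0.13 and -0.06. The 95% interval with the block was -0.17 to 0.15, or 0.889-fold to 1.11-fold (limma adjusted p = 0.948). Arrays of RNA levels do not show phosphorylation.

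Irf7, the factor that interferon itself induces, read -3.29, -3.29, -3.05 and -3.23 in control cells and -2.41, -0.01, -0.53 and -3.03 with macroH2A1.1 siRNA. The control samples lay within 0.24 of each other, while the macroH2A1.1 siRNA samples spread over 3.02, and replicate 4 was only just above the highest control. In linear terms the pairs differed 1.84-fold, 9.68-fold, 5.73-fold and 1.15-fold. The mean difference was 1.72, or 3.29-fold (SE 0.62, limma adjusted p = 0.327; SE 0.52, adjusted p = 0.104 with the block), and the exact permutation p was 0.0286 (two-sided, n = 4 per group). The value was 0.94 in the series values deposited by the authors, 0.99 when normexp corrected the background, and 1.22 without macroH2A1.1 siRNA replicate 2.

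**Figure D2:**
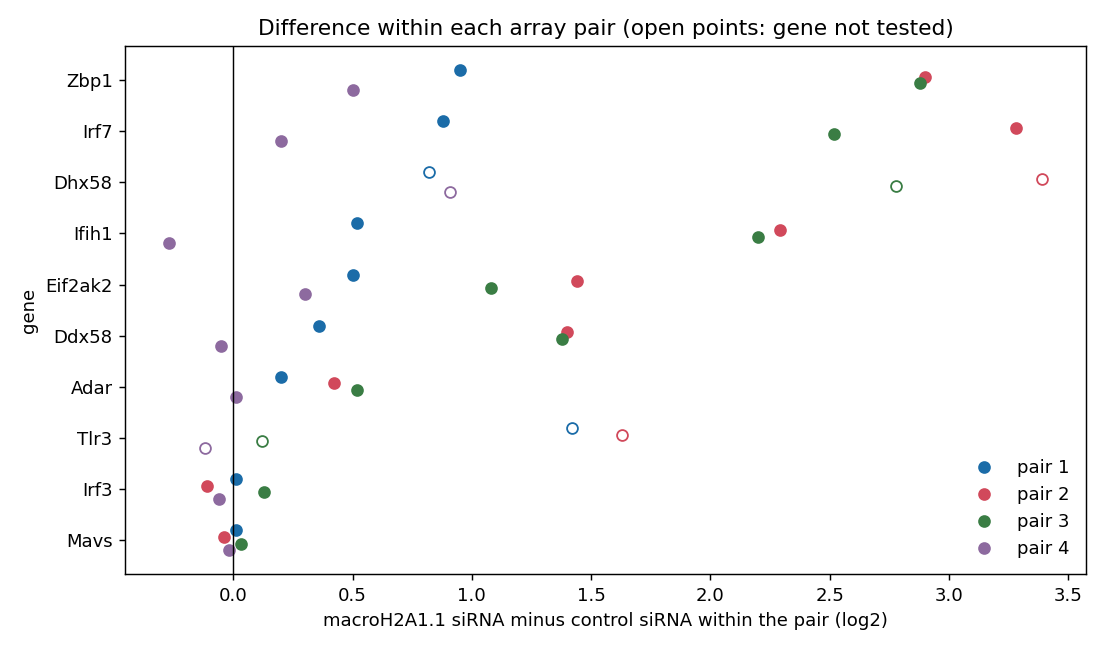
Difference within each pair of same-numbered samples (horizontal axis, log2, macroH2A1.1 siRNA minus control siRNA) for each of the 10 genes, 1 point per pair, with open points for genes that were not tested. The open points, of Dhx58 and Tlr3, rest on readings that were mostly not above background in control cells. Pairs 2 and 3 lie furthest to the right for Zbp1, Irf7 and Ifih1, and all pairs lie near 0 for Mavs and Irf3.

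Pair by pair, the median over the 8 tested members was 0.43, 1.42, 1.23 and -0.01 for replicates 1 to 4 (SD 0.67, n = 4), against 0.03, -0.01, -0.03 and 0.01 over all 13701 genes tested. Pair 4 was the one in which the members differed least, and the kept Macroh2a1 probe also differed least there, by -0.72 against -1.06, -0.92 and -1.24 in pairs 1 to 3. On the kept probe the Macroh2a1 difference of pair 1 lay between those of pairs 2 and 3. The same order held on probe A_55_P2058359 (-1.3 against -1.1 and -1.31). On probe A_52_P179238 pair 1 differed less than both (-1.53 against -1.82 and -1.67). The member median of pair 1 was 0.43. The relation between the members and the depth of knockdown was not tested, since 4 pairs are too few for a correlation.

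Counts over the members were read against all genes tested. Without pairing, 0 of 8 members passed, against 3 of 13701 genes (0.0219%) in limma, and 4 of 8 had an unadjusted p under 0.05, all of them higher, against 12.1% of all genes and 6.31% in the higher direction. With the block 0 of 8 passed, against 8.04% of all genes, 4.15% in the higher direction. At an unadjusted p under 0.05 with the block, 6 of 8 members were higher, against 14.4% of all genes (27.9% in both directions). This count, taken in either direction, changed with the setting. It was 6 with normexp, the authors' series values, the filter on all 8 arrays or without pair 4. It was 5 with quantile normalization or the mean of a gene's probes, and 5 of 10 without the filter on dim probes. It fell to 4 with median centring or without pair 1. It was 2 with trended robust variances, without pair 2 or without pair 3. There 4068, 3193 and 2911 of 13701 genes had such a p. Groups did not overlap, with macroH2A1.1 siRNA higher, for Eif2ak2, Irf7 and Zbp1, 3 of 8 members, against 4.28% of all genes. All 4 pairs were higher for 4 of 8 members (these 3 and Adar), against 19.4%. Ifih1, Irf7 and Zbp1 differed by at least 1 log2 unit, as 1.32% of all genes did in that direction. The median difference over the tested members was 0.80, and over all genes 0.00. The members were chosen with results of these arrays known, and the 2 untested ones are not in these counts.

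**Figure D3:**
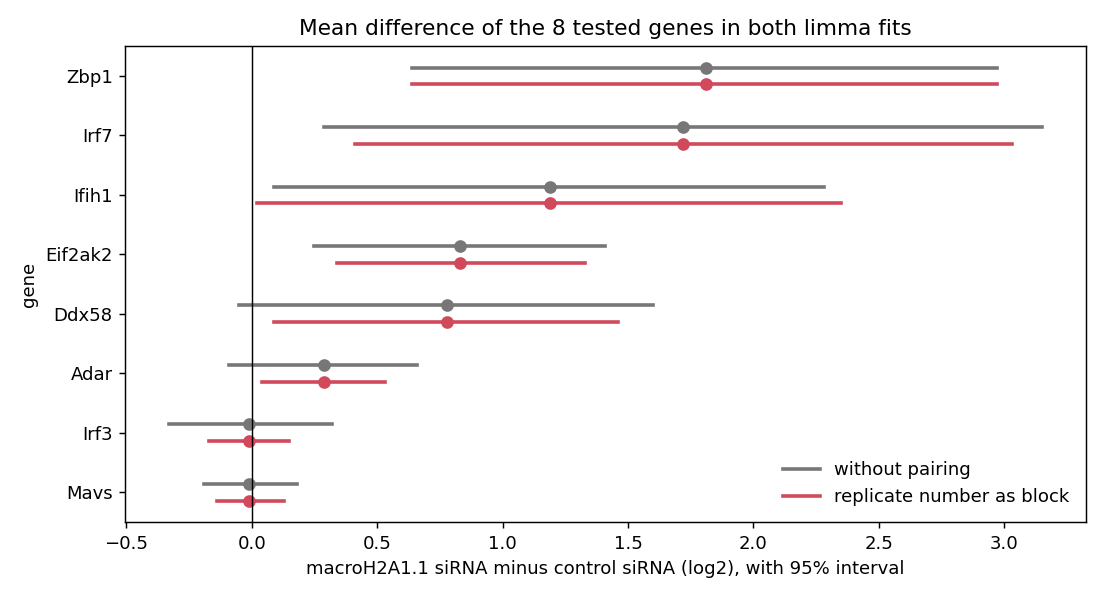
Mean difference (horizontal axis, log2, macroH2A1.1 siRNA minus control siRNA) of the 8 tested genes with its 95% interval, in the unpaired limma fit and in the fit blocked on replicate number. The intervals with the block lie above 0 for Zbp1, Irf7, Ifih1, Eif2ak2, Ddx58 and Adar before adjustment for the number of genes, and those of Mavs and Irf3 are narrow and span 0.

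The profiles of Ddx58, Ifih1, Eif2ak2, Irf7, Adar and Zbp1 over the 8 arrays correlated with each other at 0.87 to 0.98. With Mavs and Irf3 these 6 correlated at -0.21 to -0.52, and Mavs with Irf3 at 0.40. These values are descriptions over arrays that hold both groups. Of 13642 genes compared, those whose profile was most like that of Irf7 were Phf11d (r = 0.994), Oasl2 (0.990), Nrcam (0.989), Isg15 (0.985) and Oas1a (0.984). Nrcam encodes a neuronal cell adhesion molecule, Isg15 a ubiquitin-like protein induced by interferon. For Ddx58 they were Rtp4 (0.992), Psmb8 (0.990), Ifi27l2a (0.986), Oasl2 (0.982) and Lgals3bp (0.980), of which Psmb8 encodes a subunit of the immunoproteasome.

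The partners of the members were read from pathway lists, with calls from limma with the block. Downstream of RIG-I and MDA5, the list of RIG-I-like receptor cofactors and MAVS signalling had 31 of 32 genes tested, of which 0 rose and 2 fell, where 3.9% of all genes fell. Tnfaip3, which encodes the ubiquitin-editing brake A20, fell by 0.46 (SE 0.06, adjusted p = 0.0237), and Dhx15, an RNA helicase that helps RIG-I, fell by 0.43 (SE 0.09, adjusted p = 0.0450). Both were lower in all 4 pairs, and neither passed without pairing (adjusted p = 0.329 and 0.233). The list median was -0.05. The ubiquitin ligase gene Trim25 read 0.00 and the kinase gene Tbk1 read 0.11 (adjusted p = 0.993 and 0.395); these 2 were chosen after their values were seen, for their place in the route.

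In the TLR3 list 10 of 11 genes were tested and none passed in limma. With the block 1 of them had an unadjusted p under 0.05, where 27.9% of all genes did, and the list median was 0.04. Its largest difference, -3.16 for the endoplasmic chaperone gene Hsp90b1 (adjusted p = 0.425 with the block), came from 1 sample: macroH2A1.1 siRNA replicate 4 read -6.51, and the other 7 samples read 6.02 to 6.33. Traf3, an adaptor shared with MAVS, read 0.30 (adjusted p = 0.112). Of the 6 tested interferon regulatory factors none passed in limma and 2, Irf7 and Irf9, had an unadjusted p under 0.05, against that 27.9%. Irf7 is itself a member. Irf9, which encodes a DNA-binding factor of the interferon response, resembled Irf7, with pair differences of 0.67, 2.46, 1.94 and 0.28. Its mean difference was 1.34, with groups that did not overlap and an adjusted p of 0.0910 with the block. The median over these factors was 0.02, and Irf4, Irf5 and Irf8 were not tested.

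No gene passed in the lists around PKR, ADAR1 and ZBP1 in limma with the block, and 2 of 13, 1 of 3 and 2 of 6 of their genes had an unadjusted p under 0.05, where 27.9% of all genes did. For the PKR list all 13 genes were tested, the median was 0.01, and after Eif2ak2 the largest difference was that of Prkra, the activator of PKR, at -0.24 (limma adjusted p = 0.0799 with the block). For the ADAR list 3 of 4 were tested, with Adarb1 at -0.14 (adjusted p = 0.324). The ZBP1 list had all 6 genes tested and a median of 0.00. Fadd, the adaptor of caspase 8, read 0.36 there (adjusted p = 0.0706), and Ripk3, the kinase that ZBP1 recruits, chosen for that role after its value was seen, read -0.12 (adjusted p = 0.469). Sensors of other ligands did not pass either, with 3 of 9 unadjusted p-values under 0.05 in each list, near the 27.9% of all genes. In the cytosolic DNA list (9 of 10 tested) the adaptor gene Sting1 read 0.32 and the nuclease gene Trex1 0.31 (adjusted p = 0.158 and 0.156), and in the list of other Toll-like receptors (9 of 13 tested) Tlr4 read -0.35 and Tlr6 0.31 (adjusted p = 0.444 and 0.101). The Tlr4 value rests on macroH2A1.1 siRNA replicate 4, at -0.03 against 1.34 to 1.61 in the other 7 samples.

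**Figure D4:**
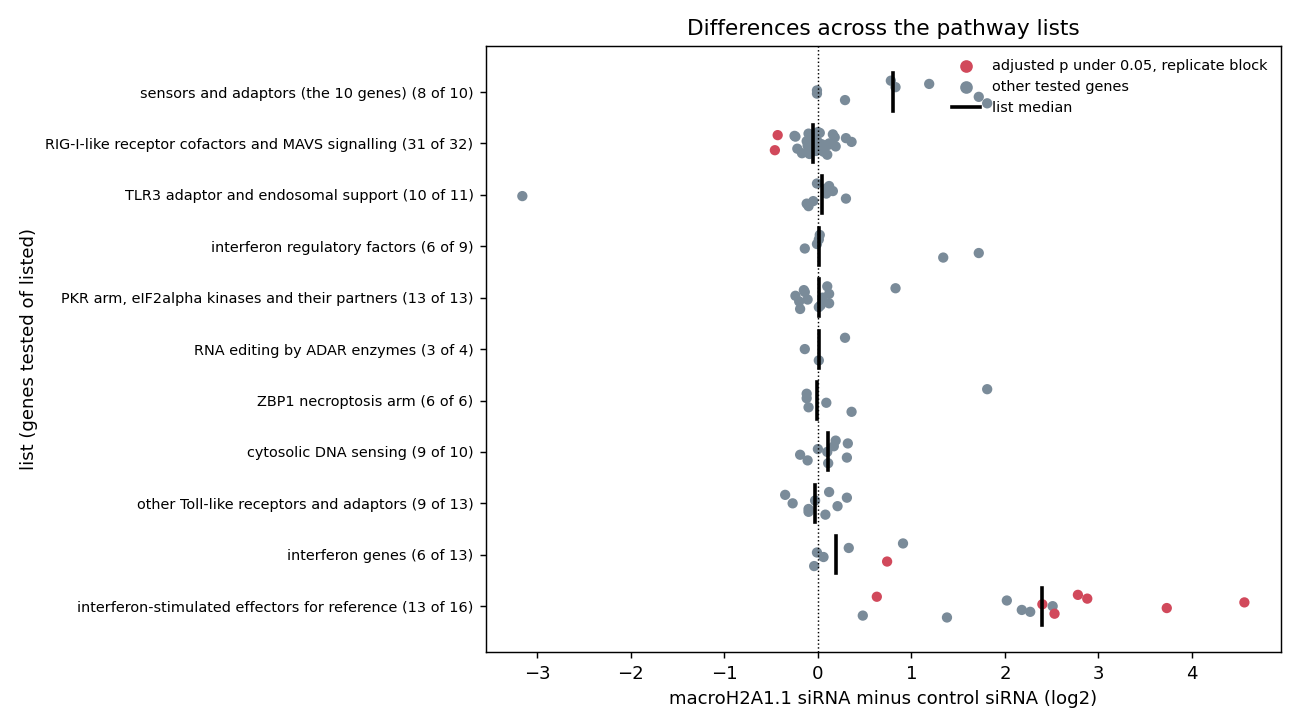
Difference of every tested gene (horizontal axis, log2, macroH2A1.1 siRNA minus control siRNA) in the members and the pathway lists, with the list median as a bar and genes past an adjusted p of 0.05 with the replicate block in red. The list of interferon-stimulated effectors has a median of 2.40 and most of the red points, while the medians of the MAVS, TLR3, PKR, ADAR and ZBP1 lists lie between -0.05 and 0.04.

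The outputs of the pathway were read last. Among interferon genes, 12 of 13 listed were on the array and 6 were tested. Ifnb1, the interferon that IRF3 induces first, did not stand well above background on any array (it was chosen after its values were seen), with readings from -6.54 to -6.33 in control cells and from -6.48 to -5.45 with macroH2A1.1 siRNA. Ifng, which encodes the type II interferon of lymphocytes, read from -4.71 to -3.42 in control cells and from -3.77 to -3.08 with macroH2A1.1 siRNA, and it passed in limma with the block (adjusted p = 0.0276) and not without (0.334). Its probe was well above background on only 1 control array and entered the fit through the macroH2A1.1 siRNA group alone, so the call rests on control signal near background. RNA was taken at a single time, and earlier times were not analysed here.

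The interferon-stimulated effectors, a list that shares no gene with the members, had 13 of 16 genes tested, of which 7 passed, all higher, in limma with the block (4.15% of all genes rose), and none passed without it. Of these 7, 5 entered the fit only through the macroH2A1.1 siRNA group, so their calls rest on control signal near background. Over the 7 tested genes that were well above background on all 8 arrays, 2 (Ifit3 and Ifit2) rose, where 497 of 13067 such genes did. Ifit2 lay at the threshold, with a limma adjusted p that rounds to 0.05. The median over these 7 genes was 2.02 (2.40 over all 13), and the pair medians were 0.92, 3.55, 2.90 and 0.29. As in the members, pairs 2 and 3 were highest and pair 4 lowest. The list was chosen with results of these arrays known. Ifit3, which binds viral RNA together with Ifit1, read -2.79, -2.75, -1.95 and -3.01 in control cells and -0.79, 1.20, 2.01 and -1.41 with macroH2A1.1 siRNA. All 4 macroH2A1.1 siRNA samples exceeded every control, and the difference was 2.88 (SE 0.46, adjusted p = 0.0296 with the block). Usp18, which removes ISG15 and dampens the interferon receptor, read from -3.42 to 1.22 on the 4 macroH2A1.1 siRNA arrays. It was well above background on 1 control array, and its highest control reading was -3.71 (adjusted p = 0.0226 with the block). Ifit1 read from -3.17 to 0.78 there and was above background on 2 control arrays (adjusted p = 0.0472). Oas1a, whose product makes a second messenger when it meets double-stranded RNA, cleared background on none of the control arrays and read -2.20, 3.23, 1.86 and -3.85 with macroH2A1.1 siRNA. It passed in limma with the block (adjusted p = 0.0491), but only through the macroH2A1.1 siRNA group, so no fold is given. Replicates 1 and 4 of that group read far below replicates 2 and 3. Without pair 1, without pair 3 or without the filter on dim probes the paired fit called 0 of all genes, so these calls end there (2747, 2911 and 3933 genes had an unadjusted p under 0.05).

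Markers of other cells were read beside these differences. Of 9 macrophage markers, Lyz2, Ptprc, Cd163 and Mrc1 were not well above background on any array and 4 were above it on all arrays. The log2 of the list's summed linear signal spanned 4.43 to 4.61 in control cells and 4.26 to 4.68 with macroH2A1.1 siRNA. This sum mostly follows the brightest gene, Itgam (3.86 to 4.42), and says little of the dimmer ones. Cd68, a lysosomal protein of macrophages, read higher in the same pairs as the members, by 0.56, 2.12, 2.25 and 0.33 (limma adjusted p = 0.0898 with the block), while Itgam read 0.02 and Csf1r -0.15. Of 6 dendritic cell markers, Itgax, Flt3, Xcr1 and Clec9a were not well above background on any array, Siglech read 0.01, and Bst2, which is also an interferon-stimulated gene, read 1.38 (adjusted p = 0.197). The log2 of that list's summed signal spanned 6.10 to 6.29 in control cells and 6.17 to 6.53 with macroH2A1.1 siRNA, and mostly follows Siglech (5.89 to 6.49). All 6 fibroblast markers were above background on every array, with sums of 9.44 to 9.77 and 9.17 to 9.86, and Postn, a matrix protein, fell by 1.01 (adjusted p = 0.0152 with the block). Of 5 endothelial markers, Cdh5 and Tek were not above background on any array, none of the 3 tested passed, and the sums were 3.18 to 3.71 and 3.03 to 3.44. The part of these cells, and of the muscle and fibroblast markers that moved, in the members' differences was not tested.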

How the data were processed

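Per the file headers, the authors obtained spot intensity with Agilent's Feature Extraction, version 10.7.3.1, and positions are on mm9. The processed intensity is background-subtracted by that software. The authors' deposited series values behave as log2 values (each column followed its own array's log2 mean signal at r of 0.9976 to 0.9995, and every median was 6.34); their background handling is unknown, and they served as an alternative. Characteristics of the treated samples say knockout where titles and design say siRNA, and the siRNA was followed.

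The 75th percentile of an array was subtracted from its log2 processed intensity. Control spots were dropped, outlier spots (143 to 236 per array) set missing and spots of 1 probe averaged. Of 55681 probes, 33003 had a gene name, 27509 by accession in RefSeq (GRCm38.p6). A probe was kept if all 4 arrays of either group had it well above background (24978, 11 of them for members), and the brightest probe stood for its gene (13701 genes, 3877 with several). No column of another series was used (0). The comparison used limma 3.58.1 under R 4.3.3 (two-sided, Benjamini-Hochberg over all genes), with no covariate and again with replicate number as a block, and single probes by exact permutation. Same-numbered samples correlated at 0.61, 0.55, 0.66 and 0.41 in their deviations from group means, which pairs them by a rule of above 0.1 in every pair. Their arrays are also neighbours on the slide, so culture and place cannot be told apart. Control arrays lay in slide columns 1 and 3 and macroH2A1.1 siRNA arrays in columns 2 and 4. Each column thus held 1 group only, and group and column cannot be told apart either. Scripts were tested on simulated data. Members and lists were chosen with earlier results of these data known. Named are all members, the siRNA target, the 5 genes most like Irf7 and Ddx58 over the arrays and, from each pathway list the 4 largest differences past the threshold or, where none passed, the largest 2; others are said to be chosen afterwards or stand with their marker list.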

Additional observations from a re-analysis of the deposited data

Results flagged for a closer look

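Mavs in control siRNA replicate 4 read 1.83, apart from the other 3 controls, of which the next highest was 1.70. The gap was 0.839 of the group's range, just past Dixon's 95% limit for 4 samples. It was the 1 such value among 28 combinations of probe and group examined, and chance alone gives about 1 in 20. Without this sample the Mavs difference was 0.03.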

How the results depend on the processing

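The median over tested members kept its direction and stayed between 0.53 and 1.03 under every setting tried, the lowest without macroH2A1.1 siRNA replicate 2. Without pairing no member passed in any of 20 settings, the reported one included. With the replicate block the count of members past the threshold was 0 and became 2 with normexp, 2 with the authors' series values, 1 with the filter on all 8 arrays and 1 with trended robust variances, Eif2ak2 each time and Zbp1 in the first pair of these. In the same settings 1887, 1714, 1336 and 2043 of all genes passed, of 13701 tested (13094 with the filter on all 8 arrays). Combinations of the block with another setting were chosen after seeing the data.

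The count of all genes past the threshold, 3 without pairing, was 1102 with the replicate block. Together with the block it was 1887 with normexp, 1044 with quantile normalization, 799 with median centring, 1714 with the authors' series values, 0 with no filter on dim probes, 1336 with the filter on all 8 arrays, 939 with the mean of a gene's probes and 2043 with trended robust variances. Without the block it was 1 with median centring, 10 with the array row as a block, 7 with the array column as a random block and 6 with array weights. Leaving out 1 sample gave 0 to 11 genes without the block: 0 when control replicate 1 or control replicate 2 was left out, 0 when any of the first 3 macroH2A1.1 siRNA samples was, 1 without control replicate 4, 2 without control replicate 3 and 11 without macroH2A1.1 siRNA replicate 4. Leaving out 1 pair gave 0 to 593 with it: 0 without pair 1 or 3, 134 without pair 2 and 593 without pair 4. In the fits with 0 calls, 1229 to 3933 genes had an unadjusted p under 0.05. The causes were not tested.

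Only Irf3 and Mavs, both at -0.01, turned sign, within -0.09 to 0.06 and -0.04 to 0.03 when 1 sample was left out. Irf3 read 0.06 without control replicate 1, 0.04 without control replicate 4, 0.06 and 0.03 without macroH2A1.1 siRNA replicates 2 and 3, and 0.03 and 0.01 with the block without pairs 2 and 4. Mavs read 0.03 without control replicate 4, 0.01 without macroH2A1.1 siRNA replicate 1 or 2, and 0.01 with the block without pair 2. Signal limits the rest: Tlr3 was never above background, and Dhx58 was above it on 4 of 8 arrays.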
